A study of Mus musculus with 10 samples.

Results

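The baseline transcriptome of the normal mouse inner ear late in gestation was described from 5 RNA-seq libraries, those titled wild type (WT) 1 to 5, out of 10 in the series. All 5 came from inner ears of C57BL/6 embryos of genotype +/+ at E16.5. The series set such ears beside ears homozygous for the nmf219 allele of Tbx1, and the mutant libraries were not used here. The labels do not say whether each library came from 1 embryo, from 1 or both ears, or from separate litters, so the spread given below is the spread between these 5 samples. The libraries are called WT 1 to WT 5 by their replicate numbers.

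The inner ear at this stage is a fluid-filled epithelial labyrinth inside a cartilage capsule. Hair cells and supporting cells of the cochlear and vestibular sensory patches are being formed and covered by extracellular matrices, the tectorial membrane and the otolithic membranes with their crystals, the otoconia. The lateral wall of the cochlea forms the stria vascularis, in which marginal, intermediate and basal cells later build the potassium-rich endolymph, next to fibrocytes that come from the periotic mesenchyme. Neurons of the spiral and vestibular ganglia and their Schwann cells supply the sensory patches.

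The deposited table gives 1 normalized value per gene and library, headed as CPM (counts scaled to library size). Each library comprised 31244799 to 41875972 reads over 15472 genes, and 3 reads correspond to a value of 0.0716 to 0.0952. Levels are compared between genes only after division by the length of the gene's merged exons (value per kb). This length was available for 15309 genes, and a rank given as top n% is the place among them by mean value per kb. Of the 15472 genes, 15303 had a value of at least 1 in at least 2 libraries, and the lowest mean was 0.215. Ranks are therefore places among the genes that the table keeps, not among all mouse genes, and a gene not listed may still have had reads. The median gene had a value of 25.1 and a value per kb of 5.73. Markers of the labelled tissue were present in every library: Oc90, Tecta, Otog, Coch and Otor each had a value of at least 63.6.

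Some libraries stood apart. WT 4 was the lowest or the highest library for more genes than any other: it was lowest in 28.6% and highest in 30.6% of the 15121 genes with a mean value of at least 1. WT 5 was highest in 24.6% and lowest in 25.5%. WT 4 and WT 5 were also the pair that differed most, with 580 genes at least 2-fold apart, against 104 for WT 1 and WT 2, the closest pair. WT 3 stood apart in RNA of skeletal muscle genes, WT 5 in RNA of adult-type globins and WT 1 in RNA of Ttr, all described below. RNA of the Y-linked gene Ddx3y was at 95.8 to 114 in WT 3, WT 4 and WT 5 and at no more than 0.03 in WT 1 and WT 2. Xist, the RNA that coats the inactive X chromosome, was at 3785 and 3526 in WT 1 and WT 2 and at no more than 15.7 in the others. WT 1 and WT 2 thus held RNA of Xist with hardly any of Ddx3y, and the other 3 libraries the reverse. No test between groups was made, since all 5 libraries form 1 group.

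The most abundant transcripts were those of mitochondria, translation, blood and cartilage. Of the 20 genes with the highest value per kb, 11 were encoded by the mitochondrial genome, 2 coded for ribosomal proteins, 2 for globins and 1 for a collagen. The cytochrome oxidase subunit gene mt-Co1 came first, with a value per kb of 5538 ± 155 (SD, n = 5), followed by mt-Atp6 at 4984, mt-Co2 at 4952 and mt-Co3 at 4691. Eef1a1, the elongation factor that brings tRNAs to the ribosome, had a value per kb of 3396 ± 92.3 (SD, n = 5), and the imprinted noncoding RNA H19 2826 ± 206. Hba-a1 at 2686 and Hbb-bs at 2632 per kb were the globins of this group, and Col2a1 at 1344 ± 179 per kb (SD, n = 5) was its collagen. The other members were mt-Cytb, mt-Nd1, mt-Nd4, mt-Nd2, mt-Nd5, mt-Nd3 and mt-Atp8, the ribosomal protein genes Rplp1 and Rps3a1, the noncoding gene model Gm42418 and the ribosomal protein pseudogene Rps12l1. Reads of a pseudogene and of its parent gene cannot be told apart here. Among the first 100 genes were 30 for ribosomal proteins, 15 mitochondrial genes, 9 collagens, 4 globins and 12 pseudogenes.

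Without division by length, long matrix genes moved up. Col2a1, the chain of type II collagen (ENSMUSG00000022483, chromosome 15, 97975602 to 98004695 in the deposited table), had the highest value of the table, 12423 ± 1655 (SD, n = 5). It was at 11887, 12043, 10261, 14710 and 13214 in WT 1 to WT 5, lowest in WT 3 and highest in WT 4. The next values were those of mt-Co1 (8557), Eef1a1 (8465), H19 (6953), Gm42418 (6770), the growth factor gene Igf2 (4662), Col1a2 (4349), Col11a1 (4115), Col1a1 (3921) and mt-Co3 (3678). The 41 listed collagen genes held 4.86% ± 0.442 of all values (SD, n = 5), the 76 ribosomal protein genes 3.93% ± 0.179 and the 15 mitochondrial genes 3.40% ± 0.0777. The 6 globin genes held 0.496% ± 0.267, with 0.255% in WT 4 and 0.956% in WT 5. Gm42418 and Lars2 together held 1.43% in WT 2 and 0.665% to 0.893% in the others. Gm42418 overlaps ribosomal RNA sequence in the mouse genome, and whether ribosomal RNA moved with it was not tested.

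**Figure D1:**
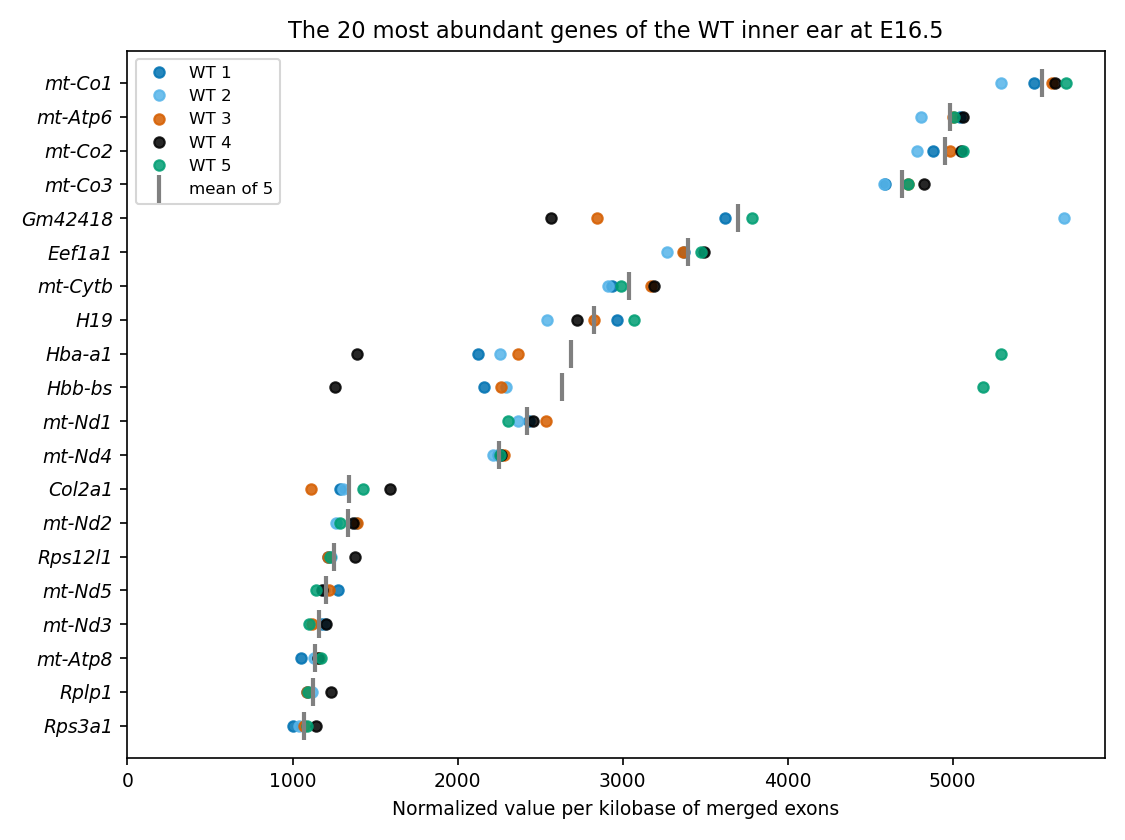
Value per kilobase of merged exons (x axis) of the 20 most abundant genes (rows), with 1 point per WT library and a grey bar at the mean of 5. The mitochondrial genes have points that lie close together, while the WT 5 points of Hba-a1 and Hbb-bs lie far to the right of the others.

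The listed genes were grouped by cell type, tissue or process into 27 lists beside a list of sex-linked genes, and 312 of all 345 chosen genes were in the table. By the median member, 9 lists lay in the upper 25% of the table. Cartilage came first (median in the top 1.27%, 150 per kb), then general mesenchyme (top 2.84%, 82.7 per kb) and the otic fibrocytes with periotic mesenchyme (top 4.501%, 48.8 per kb). Hair cell genes lay low, with a median in the top 89.6% and at 0.72 per kb. In whole-organ RNA, fewer cells of a type and less RNA per cell cannot be told apart.

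**Figure D2:**
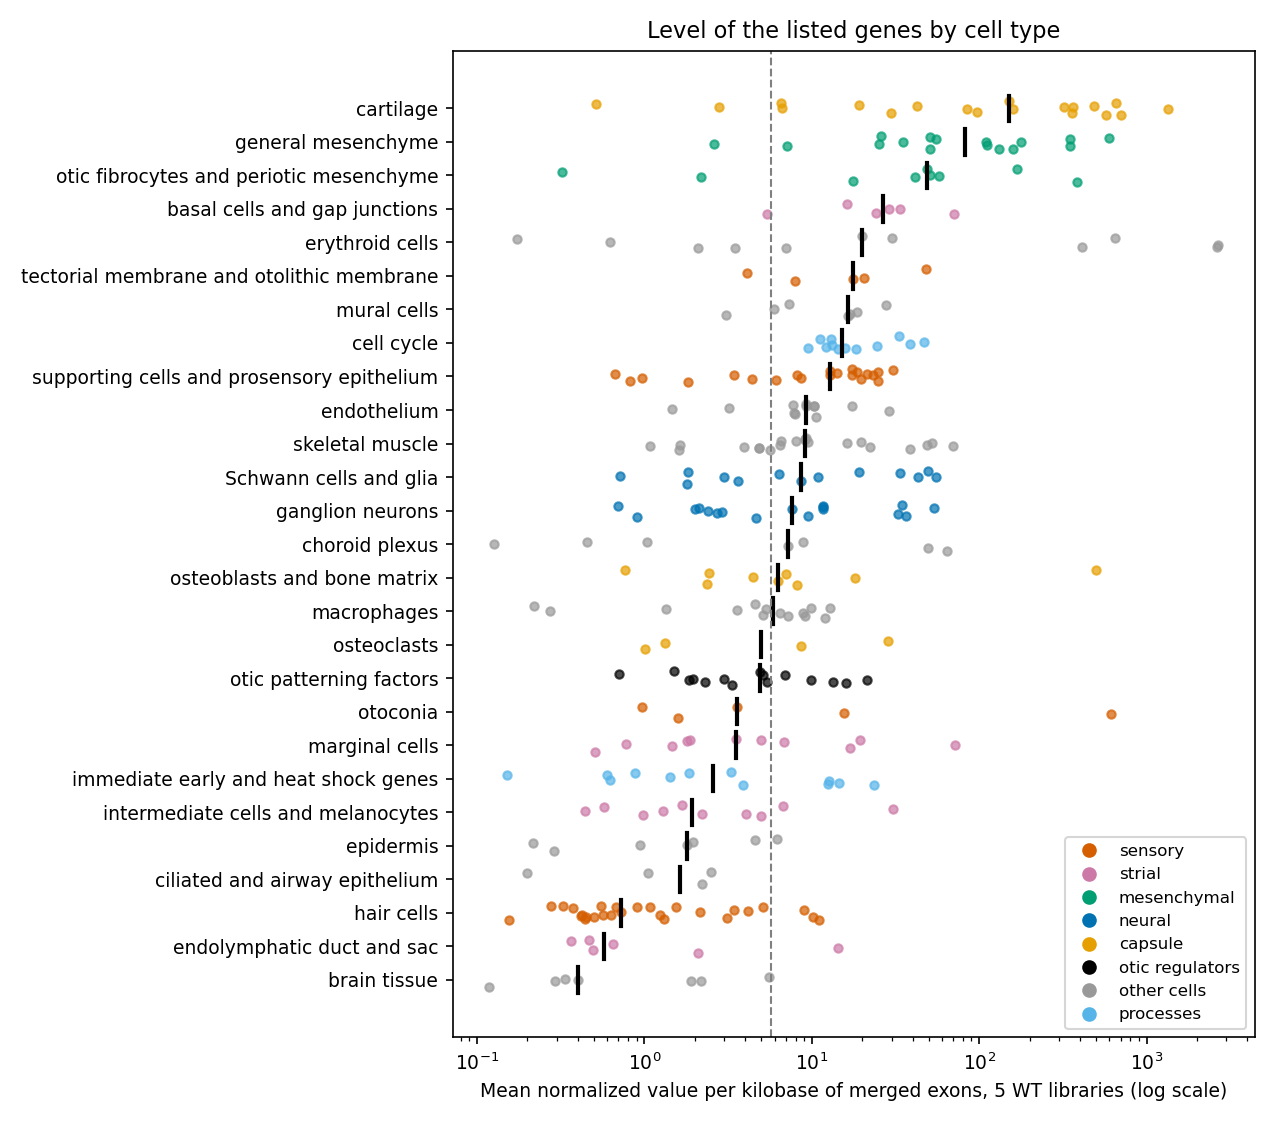
Mean value per kilobase of merged exons (x axis, log scale) of each listed gene, 1 point per gene and 1 row per list, with a black bar at the list's median and a dashed line at the median of all genes (5.73). Cartilage at 150 and general mesenchyme at 82.7 per kb lead, and hair cell genes have a median of 0.72 per kb.

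RNA of hair cells was present but scarce. The hair cell list held 27 measured genes of 28, Tmc2 not being listed. Myo6, a motor protein of the stereocilia base that other cells also use, was the highest at 11.03 per kb (top 29.5%), followed by Cib2 at 10.1, which codes for a calcium-binding protein of the mechanotransduction complex, and Ush1c at 8.94, whose product harmonin anchors the tip links. The lowest was Tmc1, a subunit of the transduction channel, at 0.16 per kb and a value of 1.12. Atoh1, the transcription factor that starts hair cell formation, was at 3.43, 2.33, 3.84, 3.10 and 3.72 in WT 1 to WT 5. Pou4f3, which maintains hair cells, was at 8.20, 8.18, 7.90, 7.16 and 9.62. From the lowest to the highest library, Atoh1 differed by 1.65-fold and Pou4f3 by 1.34-fold.

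Several other members varied more. Otof, the calcium sensor of transmitter release, was at 39.0, 31.1, 26.1, 19.1 and 49.5 in WT 1 to WT 5, and Slc17a8, the vesicular glutamate transporter of inner hair cells, at 6.86, 5.67, 4.63, 3.34 and 8.66. Both were lowest in WT 4 and highest in WT 5. Among further members, Strc, a protein of the stereocilia tops, spanned 2.74-fold and Barhl1, a homeobox factor of hair cells, 2.51-fold. Of the 26 hair cell genes with a mean of at least 1, the highest library was at least 2-fold above the lowest in 8, against 5.97% of all 15121 genes. Without WT 4 it was 2. WT 4 was the lowest library in 18 of the 26, against 28.6% of all genes, and WT 5 the highest in 16, against 24.6%. Xirp2, which codes for an actin-binding protein of hair cells and of striated muscle, varied most, with 3.97-fold between WT 4 and WT 3. WT 3 is also the library with the most muscle RNA, and its part in the Xirp2 value was not tested.

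Supporting cell and prosensory genes were more abundant than hair cell genes. Over 21 genes the median lay in the top 24.98% and at 12.9 per kb. Their median SD of log2(value + 1) was 0.130, against 0.245 for hair cell genes and 0.101 for all genes. The growth factor receptor gene Fgfr3 had 24.8 per kb and the calcium-binding protein gene S100a1 24.7, both among the 3 highest. Fgf20, the ligand that acts on the prosensory domain, was the lowest at 0.67 per kb. Sox2, which marks the prosensory domain, was at 28.7, 30.7, 27.7, 29.5 and 29.9 in WT 1 to WT 5, and Hey2, a Notch target, at 15.8, 16.0, 15.3, 16.0 and 15.5. Hey2 was the least variable member, with an SD of 0.03 on the log2 scale. Lgr6, a Wnt pathway receptor gene, varied most, at 6.62, 4.90, 5.01, 3.05 and 8.41. It was 1 of 3 members of 21 past 2-fold, with Hes5 and Fgf20, against 5.97% of all genes. Without WT 4 there were 0. Fgfr3 was at 252 in WT 4 and at 148 to 172 in the others; it is also expressed in cartilage, whose genes were high in the same library, and their part in the value was not tested.

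Among genes of the matrices over the sensory patches, Oc90 stood well above the others. Oc90, the main protein of otoconia (ENSMUSG00000015001, chromosome 15, 65876053 to 65912397), was number 43 of the table at 613 ± 34.3 per kb (SD, n = 5). Its values of 1126, 1230, 1128, 1256 and 1119 in WT 1 to WT 5 lay within 1.12-fold. The 5 otoconial genes had a median in the top 62.8% (3.59 per kb), and the other members were far lower than Oc90: Otol1, a collagen-like scaffold, had 15.6 per kb, the oxidase activator Noxo1 3.59, the oxidase gene Nox3 1.60 and the proton channel gene Otop1 0.97. Nox3 was the most variable of them, at 4.63, 1.61, 1.71, 1.69 and 4.65, with WT 1 and WT 5 above the other libraries.

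Tecta, the main non-collagenous protein of the tectorial membrane, was at 48.3 ± 3.31 per kb (top 4.57%). Otog, of the otolithic and tectorial membranes, followed at 20.5 per kb and Tectb at 17.7, and Otoa, which attaches the tectorial membrane, was lowest at 4.10. None of these 5 genes reached 2-fold between libraries, against 5.97% of all genes. Ceacam16 was not listed. Otogl varied most, at 68.0, 79.1, 63.0, 87.6 and 50.5 in WT 1 to WT 5, and Otog least. Tectb was at 81.4 in WT 4 and at 62.9 to 64.98 in the others.

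Of the strial cell types, marginal cells had 11 genes in the table, with a median in the top 63.3% and at 3.52 per kb. The sodium-potassium-chloride cotransporter gene Slc12a2 had 19.3 per kb and the pump subunit gene Atp1b2 16.9, both among the 3 highest. The secretory channel lay near the bottom: Kcne1 and Kcnq1, the subunits that pass potassium into endolymph, were at 1.47 and 0.78 per kb, and Bsnd, the chloride channel subunit barttin, was lowest at 0.51. Kcne1 was at 5.82, 3.55, 3.49, 2.12 and 8.59 in WT 1 to WT 5, and Kcnq1 at 3.65, 2.42, 2.22, 1.67 and 5.96. Esrrb, a nuclear receptor of marginal cells, was at 35.7, 26.6, 26.4, 15.6 and 45.1. All 3 genes were lowest in WT 4, highest in WT 5 and second highest in WT 1. In contrast, Lmx1a, a homeobox factor of non-sensory epithelium, was steadiest at 21.997 to 24.5. Past 2-fold were 4 of 11 members, Kcne1, Kcnq1, Esrrb and Bsnd, against 5.97% of all genes, and 3 without WT 4.

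Pigment and intermediate cell genes were low. Of 10 genes, none reached 2-fold, against 5.97% of all genes. Their median SD of log2(value + 1) was 0.149, against 0.101 for all genes. Ednrb, the endothelin receptor of melanocyte precursors, was highest at 30.6 per kb but is not restricted to them, and it ran from 99.8 in WT 4 to 165 in WT 5. Pmel, the fibril protein of melanosomes, followed at 6.70 per kb and the receptor gene Kit at 4.99. The lowest was the transporter gene Slc45a2 at 0.44 per kb, also the steadiest, and the potassium channel gene Kcnj10, which sets the endocochlear potential in the adult mouse, was most variable at 7.11 to 11.8. Among basal cell and gap junction genes, Cldn11, the tight junction protein of basal cells, had 71.2 per kb, Tjp1 33.8 and the connexin gene Gjb2 29.1. Gjb6, the partner of Gjb2, was lowest at 5.39 per kb and most variable, at 16.7, 12.5, 12.6, 9.38 and 20.8 in WT 1 to WT 5.

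Genes of the endolymphatic duct and sac lay at a median of 0.57 per kb. Slc26a4, the anion exchanger pendrin, was at 9.20, 4.95, 4.89, 4.77 and 8.78 in WT 1 to WT 5. Foxi1, the factor that switches on the sac's ion transport genes, was at 3.07, 0.30, 0, 0.57 and 1.58. Both were highest in WT 1 and next highest in WT 5. The proton pump subunit genes Atp6v1b1 and Atp6v0a4 were at 1.71 to 3.85 and at 1.34 to 3.75, both highest in WT 5 with WT 1 next. Car2, the carbonic anhydrase gene with the highest level of the list (14.3 per kb, top 22.2%), had another order: it was at 35.7, 32.0, 32.0, 39.7 and 33.5 in WT 1 to WT 5, highest in WT 4.

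Mesenchymal genes came next to cartilage by list median. In the otic fibrocyte and periotic list WT 4 was lowest in 6 of 9 genes, against 28.6% of all genes, and WT 5 highest in 6, against 24.6%. Otor, a secreted protein of the cochlear mesenchyme (ENSMUSG00000027416, chromosome 2, 143078473 to 143081713), was number 76 of the table at 384 ± 118 per kb (SD, n = 5). Its values were 411, 340, 322, 225 and 527 in WT 1 to WT 5. Coch, the matrix protein cochlin of fibrocytes (ENSMUSG00000020953, chromosome 12, 51593341 to 51605773), had 48.8 ± 22.4 per kb and varied most of its list, at 180, 126, 120, 63.6 and 241. In both genes WT 4 was lowest, WT 5 highest and WT 1 second.

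The proteoglycan gene Ogn (169 per kb) and the adhesion protein gene Tgfbi (57.4 per kb) completed the highest 3 of that list with Otor. Tgfbi had another order of libraries, from 207 in WT 2 to 230 in WT 4. The T-box factor gene Tbx18, of the periotic mesenchyme, had 50.6 per kb. The regulator Pou3f4, required in the periotic mesenchyme, was the steadiest member at values of 49.1 to 54.1, and the transporter gene Slc4a11 the lowest at 0.32 per kb. Otos was not listed. Of 9 members 3 were past 2-fold, Coch, Otor and Ogn, against 5.97% of all genes, and 1 without WT 4.

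In the general mesenchyme, Col1a1 led at 597 ± 188 per kb (SD, n = 5), with Col1a2 at 350 and Col3a1 at 348. Col1a1 was at 4479, 3381, 3836, 2300 and 5611 in WT 1 to WT 5. WT 4 was lowest in 14 of 16 members, against 28.6% of all genes, and WT 5 highest in 13, against 24.6%. The 5 members past 2-fold, against 5.97% of all genes, were Col1a1, Col1a2, Col6a1, Col6a2 and the proteoglycan gene Dcn, which varied most, and without WT 4 there were 0. Twist1, a transcription factor of mesenchyme, was the steadiest at 38.8 to 43.6, and Twist2 the lowest at 2.61 per kb.

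Neural genes covered a wide range. Uchl1, a ubiquitin hydrolase of neurons, was the highest ganglion gene at 53.9 per kb, followed by the neurofilament gene Nefl at 36.6 and the tubulin gene Tubb3 at 34.6. The median over 17 genes was 7.60 per kb (top 40.8%). The lowest was the neurotrophin receptor gene Ntrk3 at 0.70 per kb. Its relative Ntrk2, which is also expressed outside neurons, had 9.55. Neurog1, which starts the otic neuron lineage, was not listed, and its target Neurod1 was at 1.87, 2.51, 2.16, 4.22 and 1.49, highest in WT 4 and lowest in WT 5.

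Prph, a neurofilament of peripheral neurons and of type II spiral neurons, varied most of the ganglion list: it was at 25.1, 24.3, 36.7, 11.9 and 18.7 in WT 1 to WT 5. Elavl4, an RNA-binding protein of neurons, varied least, at 37.3 to 43.6. Past 2-fold were 4 of 17 genes, Prph, Calb1, Syt1 and Neurod1, against 5.97% of all genes, and 1 without WT 4. Summed as the mean of log2(value + 1), the list was at 4.86 in WT 4 and at 5.06 to 5.14 in the others.

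Schwann cell and glial genes had a median of 8.68 per kb over 13 genes. The myelin gene Pmp22, which mesenchyme also expresses, had 55.2 per kb, the fatty acid binding protein gene Fabp7 of immature glia 49.4 and S100b 43.0. Sox10, which marks the neural crest derived glia and also otic epithelium, was at 90.6 to 111. Pmp22 varied least. The compact myelin gene Mbp was lower at 2.98 per kb, and Egr2, which turns myelination on, was lowest at 0.71. Mal was the only member of 13 past 2-fold, against 5.97% of all genes. It was at 11.8, 9.79, 5.33, 2.98 and 20.2 in WT 1 to WT 5 and remained past 2-fold without WT 4. This proteolipid is found in epithelia as well as in myelin.

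The cartilage genes, listed for the capsule, had the highest levels by list median. The part of the capsule in these whole-organ values was not tested. Beside Col2a1, the type IX collagen chain gene Col9a2 had 703 per kb and Matn1, a filament protein of cartilage, 661; both stood above Oc90 in rank. Sox9, the master regulator of chondrocytes, had 84.3 per kb, and Acan, the main cartilage proteoglycan, 150. Sox5 and Sox6, its partners, had 6.66 and 6.53. Ihh and Ucma, which mark growth plate zones, were low at 0.52 and 2.81, and Col10a1, of hypertrophic cartilage, was not listed.

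The order of libraries for cartilage was the reverse of that for mesenchyme at its WT 4 end. WT 4 was the highest library in 15 of 19 cartilage genes, against 30.6% of all genes, and WT 3 the lowest in 16, against 15.7%. Hapln1, the link protein of aggrecan, varied most, at 814, 997, 785, 1381 and 754 in WT 1 to WT 5. Ucma was the only member of 19 past 2-fold, against 5.97% of all genes. Among collagens with a mean of at least 1, WT 4 was highest in all 6 chains of types II, IX and XI, against 30.6% of all genes. It was lowest in 23 of the other 33, against 28.6% of all genes.

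Bone genes were a mixed set. Sparc, an extracellular protein made by many mesenchymal cells, had 499 per kb, Spp1 18.1 and Col24a1 8.14. The osteoblast factors Runx2 and Sp7 had 7.03 and 2.37, and Dmp1 of osteocytes 0.76, the lowest. Ibsp, bone sialoprotein, was at 5.67, 2.12, 28.4, 0.60 and 9.12 in WT 1 to WT 5, 47.6-fold from WT 4 to WT 3, and Col24a1 was the steadiest. Past 2-fold were 4 of 9 genes, Ibsp, Alpl, Phex and Sp7, against 5.97% of all genes, and 2 without WT 4. The osteoclast genes Ctsk and Mmp9 had 28.5 and 8.60 per kb.

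The otic patterning factors lay near the middle of the table. Zic1 had 21.4 per kb, Gata2 15.9 and Tbx2 13.4. The T-box gene Tbx1, which carries the allele studied in this series, had 6.90 per kb (top 43.9%), next to the related Tbx3 at 5.13. Tbx3 was the least variable of the 15 genes, with values of 33.2 to 34.8. The homeobox gene Otx2 varied most, at 9.88, 10.6, 9.61, 13.2 and 5.27, and Otx1 was lowest at 0.70 per kb. Pax8, Gbx2 and Sall4 were not listed.

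Blood RNA differed strongly between libraries, and in WT 4 and WT 5 the embryonic and adult-type globins stood at opposite ends. In mouse, the embryonic globin genes Hbb-y and Hba-x are used by primitive red cells from the yolk sac, and Hba-a1, Hba-a2, Hbb-bs and Hbb-bt by definitive red cells from the fetal liver. Hba-a1 was at 1726, 1833, 1920, 1128 and 4297 in WT 1 to WT 5, whereas Hbb-y was at 11.4, 15.8, 20.5, 44.4 and 3.10. WT 5 thus had the highest Hba-a1 and the lowest Hbb-y, and WT 4 the reverse. Across WT 1 to WT 3 both had the same order. Hbb-y amounted to 0.548%, 0.735%, 0.966%, 3.64% and 0.0648% of the summed values of Hbb-bs and Hbb-bt in WT 1 to WT 5. Hba-x ran from 11.5 in WT 4 to 2.92 in WT 5. Past 2-fold were 8 of 9 erythroid genes, against 5.97% of all genes, with 7 without WT 4 and 2 without WT 5. Hba-a1 and Hba-a2 are near-identical, as are Hbb-bs and Hbb-bt, so reads within each of these pairs may be split uncertainly.

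The promoters of the 2 beta-type globins that stood at opposite ends in WT 4 and WT 5 are shown because they sit in 1 cluster on chromosome 7 and carry the same classical elements. They span 250 bases before to 50 after the start and lie on the minus strand at chr7:103853158-103853457 for Hbb-y and chr7:103827879-103828178 for Hbb-bs (RefSeq, GRCm38.p6). Capitals mark CCAAT and CACCC, searched on both strands; 37.4% and 57.5% of 32851 promoters of this length hold them.
Hbb-y: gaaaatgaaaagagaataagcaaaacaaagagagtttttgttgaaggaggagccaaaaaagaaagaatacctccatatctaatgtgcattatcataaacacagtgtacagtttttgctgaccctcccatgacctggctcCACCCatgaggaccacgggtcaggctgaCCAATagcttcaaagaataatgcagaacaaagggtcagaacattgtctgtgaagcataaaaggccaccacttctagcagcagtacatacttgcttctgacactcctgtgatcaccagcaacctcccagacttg
Hbb-bs: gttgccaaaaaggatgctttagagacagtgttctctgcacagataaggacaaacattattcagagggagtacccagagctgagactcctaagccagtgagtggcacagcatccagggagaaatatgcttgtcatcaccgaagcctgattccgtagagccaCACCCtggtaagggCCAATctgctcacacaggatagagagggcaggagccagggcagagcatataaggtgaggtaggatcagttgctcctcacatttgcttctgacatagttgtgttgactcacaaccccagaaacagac
Each holds 1 CCAAT and 1 CACCC, which is a description of the letters only.

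Skeletal muscle genes set WT 3 apart. All 21 genes were highest in WT 3, against 15.3% of all genes, and 20 were lowest in WT 4, against 28.6%. The list held 0.316% of all values in WT 3, 0.0209% in WT 4 and 0.0482% to 0.0880% in the others, and no member was at 0 in any library. Acta1, skeletal actin, was at 76.5, 41.4, 351, 14.9 and 48.8 in WT 1 to WT 5, and Ckm, muscle creatine kinase, at 16.4, 7.34, 82.4, 0.81 and 10.8. WT 3 exceeded the next library by 1.95-fold for Myod1, the myogenic factor, to 5.02-fold for Ckm, with a median of 3.68-fold. All 21 were past 2-fold, against 5.97% of all genes, and 17 remained so without WT 3. The median rank of the list was the top 35.5%, and the top 57.6% without WT 3.

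The Acta1 promoter is shown as that of the muscle gene with the highest level per kb (69.3). It lies at chr8:123894726-123895025 on the minus strand (RefSeq, GRCm38.p6), and capitals mark a CArG box and CANNTG, searched on both strands; 1.63% and 72.3% of the 32851 promoters hold them.
Acta1: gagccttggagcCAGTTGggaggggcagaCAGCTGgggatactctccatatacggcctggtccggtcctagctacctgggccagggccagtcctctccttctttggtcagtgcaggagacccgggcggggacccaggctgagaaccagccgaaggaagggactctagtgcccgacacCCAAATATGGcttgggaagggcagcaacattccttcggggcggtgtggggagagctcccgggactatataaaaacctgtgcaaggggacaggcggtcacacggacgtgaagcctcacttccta
It holds 1 CArG box and 2 CANNTG. The promoter of Ckm, searched in the same way, holds 0 CArG boxes and 1 CANNTG.

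Other tissues showed as further differences between libraries. Ttr, transthyretin, made by the choroid plexus and the liver, was at 208, 37.3, 41.0, 2.12 and 4.06 in WT 1 to WT 5. Kcne2 (5.38, 1.82, 1.49, 0.10 and 0.37) and Slc4a5 (6.09, 2.66, 2.47, 0.98 and 0.90), both also expressed in choroid plexus, were likewise highest in WT 1. Of the 7 genes of that list, 5 were highest in WT 1, against 16.2% of all genes. The other 2, Aqp1 and Kl, were highest in WT 5, against 24.6%. Folr1 and Cldn2 of the same list were not listed. Past 2-fold were 5 of 7 choroid plexus genes, against 5.97% of all genes, and 3 without WT 4. Of 7 epidermal genes, 5 were highest in WT 5, against 24.6% of all genes, 1 in WT 2 and 1 in WT 4. WT 4 was lowest in 4, against 28.6% of all genes, WT 2 in 2 and WT 1 in 1. Past 2-fold were 4 of the 7, against 5.97% of all genes. Among them, the basal keratin genes Krt5 and Krt15 were highest in WT 5, at 21.8 and 26.3, and lowest in WT 4, at 0.38 and 1.17. The 4 ciliated and airway genes shared no order: 2, Foxj1 and Bpifa1, were lowest in WT 4 and 2, Cfap126 and Dnah5, in WT 5. Bpifa1 was the most variable, at 1.92, 4.63, 1.11, 0.02 and 9.37 in WT 1 to WT 5. The part of neighbouring tissue in any of these values was not tested.

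Of 14 macrophage genes, WT 4 was lowest in 13, against 28.6% of all genes, and WT 5 highest in 11, against 24.6%. The complement gene C1qb was the highest at 12.9 per kb, and Csf1r, the growth factor receptor of macrophages, was at 49.7, 34.4, 39.0, 28.6 and 57.1. None of 12 endothelial genes was past 2-fold, against 5.97% of all genes, and WT 4 was lowest in 10, against 28.6%. Their median SD of log2(value + 1) was 0.108, against 0.101 for all genes. Cdh5, the junction cadherin of endothelium, led at 29.1 per kb, and Sox17 was lowest at 1.47.

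All 12 cell cycle genes were highest in WT 4, against 30.6% of all genes, and lowest in WT 5, against 25.5%. The fold from WT 5 to WT 4 was 1.33 for Pcna, the DNA polymerase clamp, to 1.61 for Mcm5, a helicase subunit, with a median of 1.53. None of the 12 was thus past 2-fold, against 5.97% of all genes. Mki67, the marker of dividing cells, was at 387, 410, 408, 441 and 302 in WT 1 to WT 5. All 76 ribosomal protein genes with a mean of at least 1 were likewise highest in WT 4, against the same 30.6%.

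**Figure D3:**
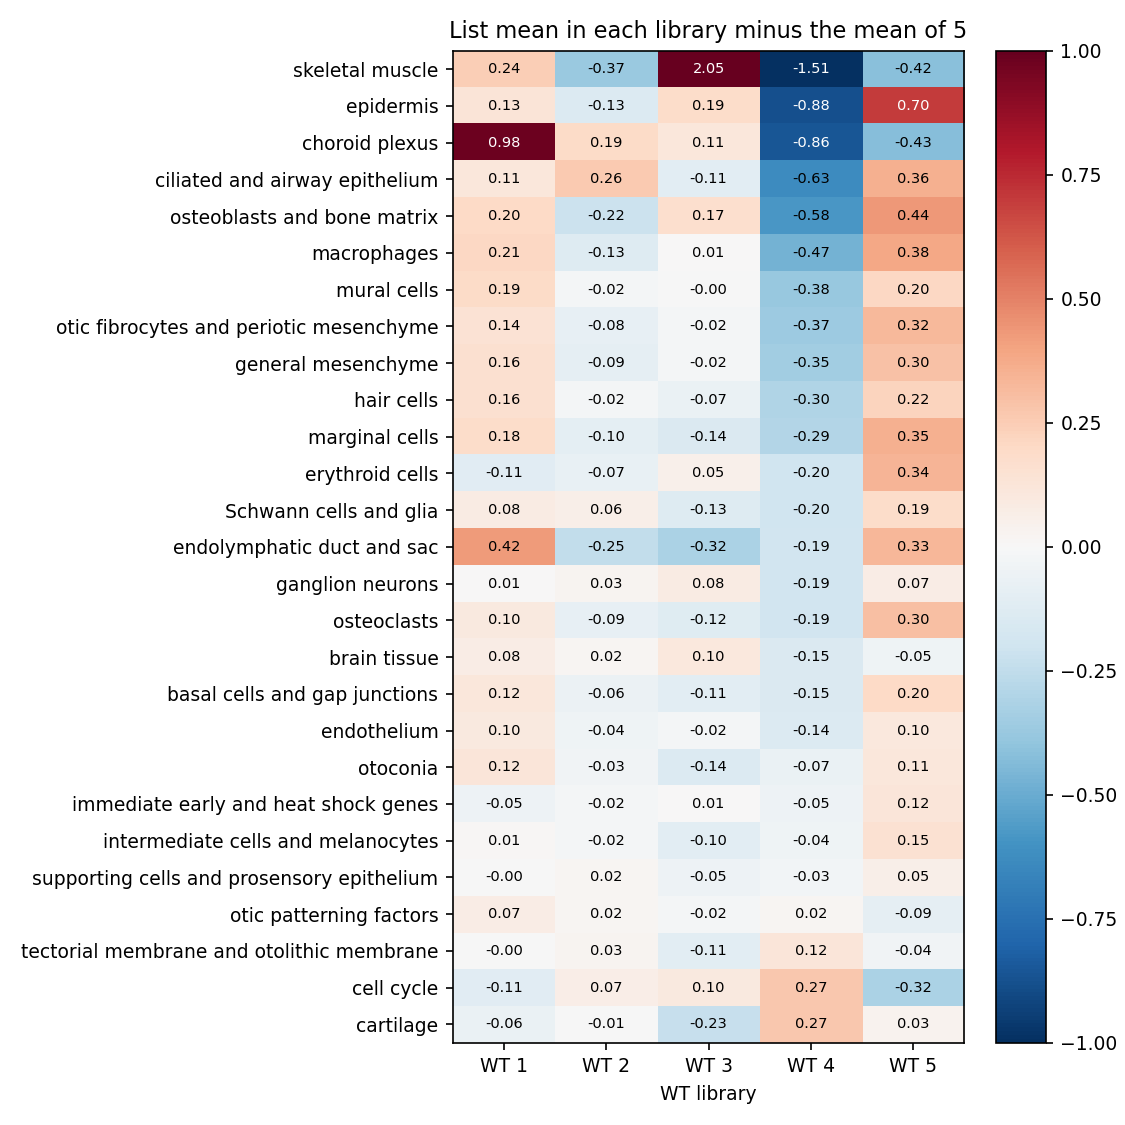
Mean log2(value + 1) of each list, the sex-linked list left out, in each WT library minus the mean of the 5 libraries (cells, log2 units; colours end at ±1), with rows ordered by WT 4. In the WT 4 column the muscle list is lowest at -1.51 and cartilage and cell cycle are highest at 0.27 each; WT 3 has 2.05 for muscle.

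**Figure D4:**
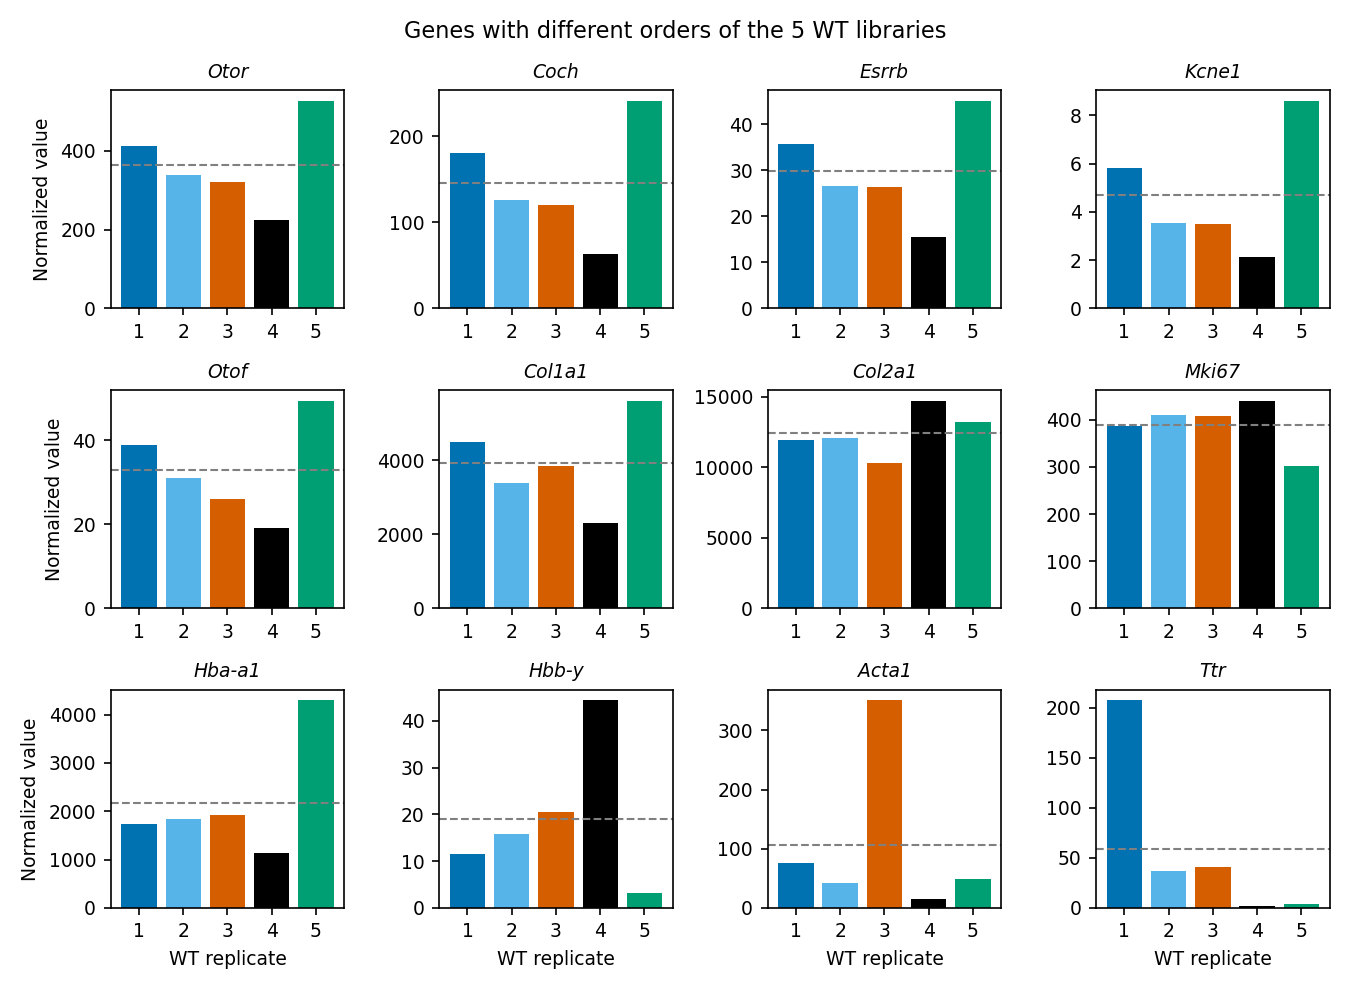
Normalized value (y axis, from 0) of 12 genes in WT 1 to WT 5, 1 bar per library, with a dashed line at the mean. Coch runs from 63.6 in WT 4 to 241 in WT 5, Hbb-y from 3.10 in WT 5 to 44.4 in WT 4, and Acta1 and Ttr each have 1 high library, at 351 and 208.

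Most genes differed little between the libraries. The SD of log2(value + 1) was 0.10 at the median and 0.24 at the 90th percentile, and the median fold from the lowest to the highest library was 1.21. The median coefficient of variation was 7.57%, of which read counting alone would give 3.26%. The highest library was at least 2-fold above the lowest in 903 of 15121 genes, 5.97%. In 690 of these 903 the lowest library was WT 4, against 28.6% of all genes, and in 407 the highest was WT 5, against 24.6%. Without WT 4, 492 genes remained past 2-fold. Without WT 5 the count was 658.

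The most variable genes were mostly those of muscle. Xist, Y-linked genes, pseudogenes and unnamed models were left out, while other X-linked genes were kept. The 25 genes with the largest SD then held 13 members of the muscle list (Ckm, Myh8, Acta1, Tnnc2, Tnni2, Tnnt3, Actn2, Myh3, Myl1, Casq2, Ttn, Mylpf and Myh7). Ttr came first at an SD of 2.47, and Ckm had 1.99. WT 3 was the highest library in 19 of the 25, against 15.3% of all genes, and WT 4 the lowest in 23, against 28.6%. The 25 were picked for their spread in these same libraries and 13 belong to 1 list, so these counts are not independent. Outside the muscle list, the set held Ibsp, the tendon gene Tnmd (30.7, 7.61, 38.6, 2.94 and 30.7 in WT 1 to WT 5), the keratocan gene Kera and the keratin genes Krt5 and Krt15. The others outside that list were Myl2, Atp2a1, Atp1b4 and Arhgap36, highest in WT 3 at 12.3, 61.0, 45.4 and 30.8, and B930041F14Rik and Xlr3b, highest in WT 2. Without WT 3, 11 of the 25 stayed among the most variable, and Hbb-y, Pomc, Bpifa1, Ptgds and Thbs4 were among those that entered.

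Genes that varied least lay below counting noise. Among genes with a mean of at least 10, Sept7, a septin of the cytoskeleton, had the smallest SD, 0.01, with values of 223 to 225 in all 5 libraries. Ppp2r5c, Mark2, 2510039O18Rik, Ulk1, Rnf10, Ammecr1l, Limk2, Pfdn1 and Mllt3 completed the 10 steadiest, and each differed by at most 1.02-fold between libraries. In all, 1479 genes had a coefficient of variation under that of read counting.

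**Figure D5:**
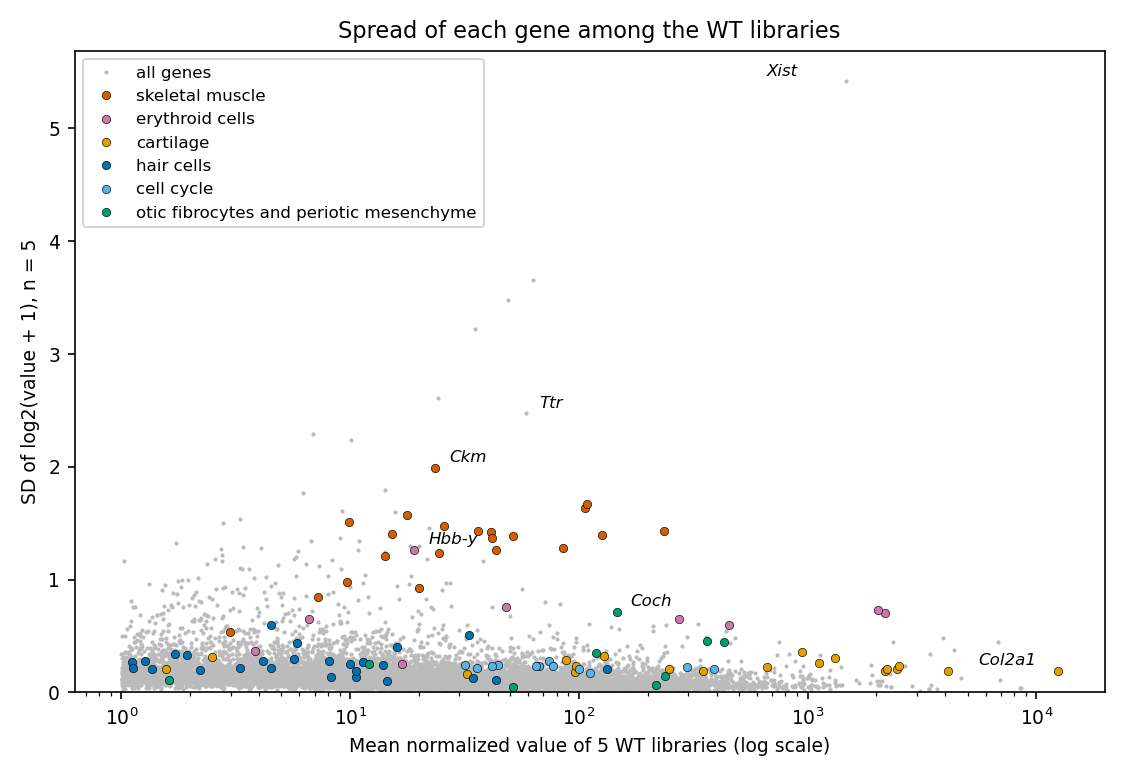
SD of log2(value + 1) among the 5 WT libraries (y axis) against the mean value (x axis, log scale), 1 point per gene with a mean of at least 1. Muscle genes lie far above the grey cloud, with Ckm at 1.99, while cell cycle and cartilage genes lie within it and Col2a1 has 0.19.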

How the data were processed

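RNA-seq of inner ear was measured in 10 samples, and the 5 WT libraries are described here; the nmf219 columns were not used here. Per the labels' protocols, tissue was snap frozen, RNA was taken with Trizol and standard Illumina libraries were made. No label or header names an aligner, counter, strand setting, annotation or build (not given in the sources used here), so overlapping and antisense genes are uncertain. The deposited values are a normalized signal headed as CPM per the file headers, whole multiples of 1 read in 100% of values (tolerance 0.01 read). Genes, 15472 in all, keep the deposited positions; exon lengths came from GENCODE M21 (GRCm38) for 15309, and 22 symbols turned into dates were restored. Groups came from sample titles. Columns were matched to libraries by the numbers in the descriptions, 2164 and 2169 for WT 2 and WT 5 and 2200 to 2208 for the others.

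Computed here were means, SDs, values per kb of merged exons, ranks, log2(value + 1) with a pseudocount of 1, folds between highest and lowest library over genes with a mean of at least 1, and promoter letters (Python 3.11.15, numpy 2.4.6, pandas 2.3.3, scipy 1.17.1, matplotlib 3.10.9). edgeR 4.0.16 (R 4.3.3) on recovered reads served as an alternative for the spread. No test between groups was made. Scripts were tested on simulated data. No pair of libraries was a duplicate: their counts differed by 14.4 to 67.9 times sampling noise (chi-square per degree of freedom). Floors of 3 reads cover counting error only.

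Named genes were the 20 highest per kb, the 10 highest values, in each list the 3 highest, the lowest, the most and least variable and those not listed, the 25 most variable and the 10 steadiest genes; members described for their role were added after their values were seen. Results for some genes that this rule names are left out of the text; they remain in the counts. The members and lists were chosen with earlier results of these data known. Alternatives were other pseudocounts, filters, scalings, length corrections and leaving out each library.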

Additional observations from a re-analysis of the deposited data

Results flagged for a closer look

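In 27 of 209 values examined, for 181 genes and 28 lists, 1 library lay further from the other 4 than Dixon's test at 95% allows. Chance flags about 1 in 20 such groups. Some of the genes were named for their large spread in these same libraries, so that rate does not hold for them. Many of the genes belong to the same lists, so the flags are not independent. Library WT 3 gave 16 of them, all high. These were Myh3 at 693, Acta1 at 351, Myh8 at 334, Actc1 at 254, Mylpf at 155, Myh7 at 131, Myl1 at 128, Actn2 at 115, Ckm at 82.4, Tnnt3 at 76.8, Atp2a1 at 61.0, Tnnc2 at 56.3, Casq2 at 46.2, Tnni2 at 32.2, Arhgap36 at 30.8 and Myl2 at 12.3. In each the other 4 libraries lay lower, for Myl2 at 0.16 to 0.95 and for Arhgap36 at 1.60 to 5.75.

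WT 4 was high for the mural and cartilage gene Cspg4 at 281, Fgfr3 at 252, Rplp1 at 616, the pseudogene Rps12l1 at 549 and Tectb at 81.4, and low for the mean of the ganglion neuron list at 4.86 on the log2 scale. WT 5 was high for Hba-a1 at 4297, Hbb-bs at 3983 and the red cell anion exchanger gene Slc4a1 at 22.9. WT 1 was high for Ttr at 208, and WT 2 was low for mt-Atp6 at 3276 against 3406 to 3445 in the others.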

How the results depend on the processing

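No paired analysis was possible because all 5 libraries belong to 1 group and no contrast was made. The count of genes past 2-fold was 345 in place of 903 with a minimum mean of 5, and 492 to 880 when 1 library was left out, 492 being without WT 4. Those with WT 4 lowest numbered 303 in place of 690 with that minimum, and 532 to 711 without 1 other library. Of the 25 most variable genes, 12 were shared with a pseudocount of 0.1, 13 with the coefficient of variation freed of counting noise, 9 with edgeR's dispersion and 11 to 24 without 1 library, 11 being without WT 3. Of the 20 most abundant, 10 were shared without length correction. On values per kb, mitochondrial genes held 12.6%, ribosomal protein genes 8.72%, collagens 2.30% and globins 2.31% of the total. The cause of these shifts was not tested. Without length correction the median rank of 22 of 28 lists moved by more than its spread between libraries, and with the longest transcript that of 11; leaving out a library moved none by that measure, which the same libraries set, but the muscle median went from the top 35.5% to the top 57.6% without WT 3 and the erythroid one from 14.8% to 21.3% without WT 5. The lists in the upper 25% numbered 6 to 10 over all alternatives, against 9. Scaling each library to the same total or by median ratios gave 899 and 910 genes past 2-fold.

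Depth limits the genes with few reads. Hair cell and endolymphatic sac genes with values near 1 rest on fewer reads than abundant genes, with 1 read at a value of 0.0239 to 0.0317. Counting alone would give Tmc1, at a mean of 1.12, a coefficient of variation of 15.8%, and the observed one was 29.3%. For Foxi1, at a mean of 1.10, these were 15.4% and 113%. Most of the spread of abundant genes exceeds counting error. Lengths of merged exons understate levels of genes with long rarely used exons.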

Other observations

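Some genes were near 0 in some libraries and well above 0 in others. B930041F14Rik was at 0.02 and 0.06 in WT 1 and WT 5 and at 18.1, 15.2 and 17.0 in WT 2, WT 3 and WT 4. The unnamed model ENSMUSG00000091921 had the opposite pattern, at 16.9 and 17.6 in WT 1 and WT 5 and at 0 in the other 3. Xlr3b, an X-linked gene of a multicopy family, was at 0.76 in WT 4 and at 15.6 to 28.7 in the others. The lung and airway gene Cyp2f2 was at 0 in WT 4 and at 9.09 in WT 5. These genes were singled out after their values were seen.

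In 8 sets of genes, 16 in all, the 5 values of the members were identical, so the deposited table does not separate them. WT 4 was lowest and WT 5 highest in 2092 genes, and the reverse held in 2102, so over all genes neither order was more common; among the genes past 2-fold the numbers were 365 and 36. The median SD of log2(value + 1) was 0.10 both over all libraries and within the 2 ranges of description numbers.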
